A study of Rattus norvegicus with 19 samples.

Results

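Left ventricles of rats with heart failure with preserved ejection fraction (HFpEF) that had been given pirfenidone (PFD) were compared with left ventricles of HFpEF rats taken before treatment began. The members were chosen by their titles, 2 libraries of PFD-treated hearts at week 9 and 3 libraries of HFpEF hearts at week 5, which made 5 of the 19 libraries of the series. RNA was sequenced from Sprague-Dawley rats that were 24 weeks old at the start, in a study of PFD and empagliflozin, given alone and together. The HFpEF rats had drunk water with L-NAME at 0.5 g/L, an arginine analog that blocks the synthesis of nitric oxide, and eaten a high-fat diet with 60% of its kilocalories from lard for 5 weeks. The PFD rats had the same 5 weeks of induction, followed by 4 weeks of daily oral PFD at 0.3 g/kg per day. The methods of the study give 5 weeks of induction and its discussion speaks of 9, and neither states outright whether L-NAME and the diet went on during the 4 weeks of PFD. Every library was labelled as male and wild type.

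Set beside these groups were 3 untreated libraries, from HFpEF rats that received phosphate-buffered saline alone for the same 4 weeks. There were also 3 control libraries each of weeks 5 and 9, from rats that ate normal chow and drank water without L-NAME. For some immune genes below, 2 libraries of week 9 from HFpEF rats given empagliflozin alone (0.35 g/kg per day for 4 weeks) were added. The PFD hearts were taken 4 weeks later than the HFpEF hearts, so the drug, the passage of time and differences between the rats themselves, such as the counts of immune genes given below, cannot be told apart in the comparison of PFD with HFpEF. The comparison asks how the ventricle after PFD differed from the disease state in which treatment started.

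PFD is an oral antifibrotic drug used in fibrosis of the lung, and it is known to lower the expression of transforming growth factor beta (TGF-β) and of collagen in several tissues. The adult ventricle draws most of its energy from fatty acids oxidized in mitochondria, and each beat follows a cycle in which the ryanodine receptor releases calcium from the sarcoplasmic reticulum and a calcium pump takes it back. In HFpEF the ventricle fills poorly because it is stiff and relaxes slowly, and fibrosis, inflammation and altered energy metabolism are known parts of the disease.

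The total counts were 12205327, 9386791 and 10857636 in HFpEF replicates 1, 2 and 3, and 9879949 and 10366167 in PFD replicates 1 and 2. The share of these counts in the 10 most abundant genes was 4.77, 5.42 and 6.13 percent in the HFpEF libraries and 9.16 and 9.96 percent in the PFD libraries. All levels below are CPM, counts scaled to the library total and normalized by trimmed mean of M values (TMM), in the order of the replicate numbers, and a gene at 3 counts in a library had between 0.215 and 0.329 CPM in these 5 libraries. Fold changes are log2 of PFD over HFpEF with their standard error (SE), and a differentially expressed gene (DEG) had an adjusted p under 0.05 and a log2 fold change of at least 1 in either direction. Each library came from 1 heart. The p-values rest on a spread between hearts that was estimated over all 19 libraries of the 7 groups, not only the 5 compared.

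The markers of the labelled tissue were checked first. All 12 genes of a cardiomyocyte list, among them a myosin heavy chain, troponins and myoglobin, were detected in each of the 5 libraries. Their summed level was 15601, 28492 and 42509 CPM in the HFpEF libraries and 78107 and 85116 CPM in the PFD libraries. The HFpEF libraries thus lay below both PFD libraries and differed among themselves by more than the PFD libraries did. Fewer cardiomyocytes and less cardiomyocyte RNA per cell cannot be told apart in RNA from whole tissue.

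HFpEF replicate 1 was the library farthest from PFD. The root mean square of its log2 differences over all genes was 0.930 to HFpEF replicate 2 and 0.671 to replicate 3, and 1.18 and 1.21 to the PFD libraries. It was 0.610 between HFpEF replicates 2 and 3 and 0.509 between the PFD libraries. HFpEF replicate 3 differed from the PFD libraries by 0.717 and 0.773, and HFpEF replicate 2 by 0.831 and 0.767. Medians of gene lists are therefore also given without HFpEF replicate 1, or with their lowest and highest values when 1 library was left out.

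Eif2s3y lies on the Y chromosome and encodes a subunit of translation initiation factor 2. It had 0, 855 and 0 counts in the HFpEF libraries and 0 and 0 in the PFD libraries, although all 5 were labelled male. HFpEF replicate 2 was the library with counts of this gene, so the labelled sex and the counts did not match in the other 4. The description of the study has groups with equal numbers of male and female rats and states that the hearts sequenced were male. The sex of each heart was not tested further, and neither was its part in the values below.

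Genes of the rat major histocompatibility complex (MHC), named RT1, vary in sequence between haplotypes. The 3 that were DEGs and higher in PFD had at most 3 counts in each HFpEF library and at least 36 in each PFD library. RT1-CE16, a class I gene, had 3, 1 and 3 counts in the HFpEF libraries and 463 and 545 in the PFD libraries, which was at least 211-fold higher when 3 counts were assumed in each HFpEF library. RT1-Bb, a class II beta chain, had 0, 0 and 0 counts against 110 and 143 (at least 52.9-fold higher), and RT1-A3 had 0, 0 and 0 against 36 and 37 (at least 15.3-fold higher). In the other groups, RT1-CE16 stood at 0.0942, 0 and 0 CPM in the controls of week 5, 104, 101 and 91.0 in the controls of week 9 and 61.5, 55.5 and 64.9 in the untreated libraries. RT1-Bb had 0, 0 and 0 counts in the controls of week 5, 195, 147 and 183 in those of week 9 and 129, 311 and 104 in the untreated libraries, and RT1-A3 had 1, 0 and 0, 57, 72 and 65 and 41, 42 and 53. In both libraries of rats given empagliflozin alone, also of week 9, each of the 3 genes had 0 counts. Over all 30 RT1 genes tested, 3 were DEGs and higher in PFD and 1 lower, where 5.96% of all genes were DEGs. Whether the rats of all groups came from 1 colony is not given in the sources used here, and the part of such a difference in the values below was not tested. Copies of RT1 genes resemble each other closely, and how reads were shared among them was not tested.

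Over 12388 genes tested, 738 (5.96%) were DEGs between PFD and HFpEF. Of these, 446 (3.60% of the genes tested) were higher and 292 (2.36%) lower in PFD, while the median log2 fold change of all genes tested was −0.04. These shares stand beside the DEG counts of every gene list below. The PFD and HFpEF libraries did not overlap for 6563 genes (53.0%), with 25.7% of all genes higher and 27.3% lower in PFD, and for 735 of the DEGs. At an unadjusted p under 0.05 there were 4332 genes (35.0%), with 16.8% of all genes higher and 18.1% lower in PFD. DESeq2 called 759 genes higher and 750 lower, and limma voom 597 and 664. The number of DEGs rested on single libraries: it was 4 without HFpEF replicate 1, 5 without PFD replicate 1 and 7 without PFD replicate 2, with 2840, 2749 and 2682 genes at an unadjusted p under 0.05. Without HFpEF replicate 2 it was 760 (254 higher and 506 lower), of which 473 were among the 738, and without HFpEF replicate 3 it was 911. The RT1 genes named above were DEGs in each of these 5 fits, and where PFD kept 1 library, that library was assumed to vary as the other groups did.

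**Figure D1:**
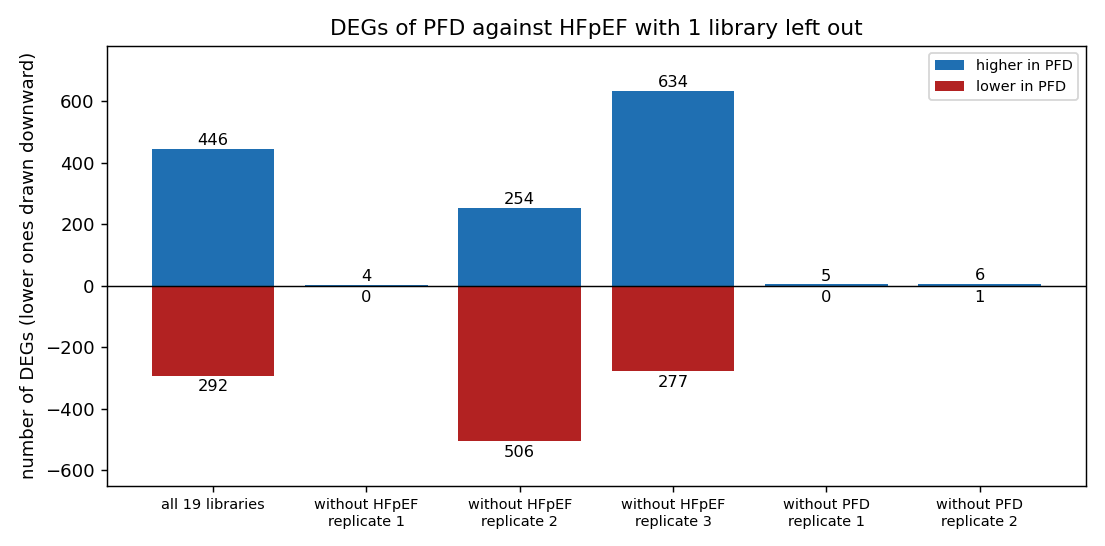
Number of DEGs between PFD and HFpEF that were higher in PFD (bars up) and lower (bars down), with all libraries and with 1 library left out at a time. With all libraries 446 were higher and 292 lower, and 4 and 0 were counted without HFpEF replicate 1, and 254 and 506 without HFpEF replicate 2.

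Oxidation of fatty acids supplies most of the ATP of the beating ventricle. Fatty acids enter the cell through transporters and binding proteins, are carried into mitochondria by carnitine transferases and are shortened by enzymes of β-oxidation. Of 32 genes of fatty acid uptake and oxidation tested, 13 were DEGs and higher in PFD and 0 lower, where 3.60% of all genes were higher DEGs. Their median log2 fold change was 1.62 against −0.04 over all genes, and 1.36 without HFpEF replicate 1. In all 32 of them both PFD libraries lay above the 3 HFpEF libraries, as they did in 25.7% of all genes. The summed level of the list was 4459, 7397 and 11331 CPM in HFpEF and 22823 and 26304 CPM in PFD. The cardiomyocyte markers described above had 2 DEGs higher and 0 lower of 12, with a median of 1.46 (1.19 without HFpEF replicate 1). The part of cardiomyocyte content in the values of this list and of the metabolic and contractile lists below was not tested.

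Hadh, which encodes the dehydrogenase that acts on short- and medium-chain hydroxyacyl-CoA, stood at 41.8, 57.1 and 97.7 CPM in the HFpEF libraries and 326 and 494 in the PFD libraries. No library of HFpEF reached the lower PFD library, and the log2 fold change was 2.64 (SE 0.67, adjusted p = 0.0352). Hadhb, the thiolase subunit of the mitochondrial trifunctional protein, stood at 276, 309 and 518 CPM in the HFpEF libraries and 1707 and 1766 in the PFD libraries, a log2 fold change of 2.24 (SE 0.56, adjusted p = 0.0352). Decr1, a reductase needed for unsaturated fatty acids, stood at 92.1, 131 and 209 CPM in the HFpEF libraries and 526 and 554 in the PFD libraries, a log2 fold change of 1.91 (SE 0.47, adjusted p = 0.0337). For both genes the PFD libraries were close to each other and well above the highest HFpEF library. Fabp3, the binding protein that carries fatty acids through the cytosol, had the highest level of this list at 354, 841 and 1318 CPM in the HFpEF libraries and 3163 and 3674 in the PFD libraries. It did not overlap between the groups either but was not a DEG, with a log2 fold change of 2.03 (SE 0.72, adjusted p = 0.0706).

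Acetyl-CoA from fatty acids and pyruvate is burned in the tricarboxylic acid (TCA) cycle. Of 25 genes of the cycle and of pyruvate entry, 15 were DEGs and higher in PFD and 0 lower, with a median log2 fold change of 1.45, and 1.28 without HFpEF replicate 1. Each of the 25 genes was higher in PFD without overlap, as were 25.7% of all genes. Cs, citrate synthase, which starts the cycle, stood at 139, 135 and 220.1 CPM in the HFpEF libraries and 585 and 632 in the PFD libraries. All HFpEF libraries were low and the PFD libraries nearly equal, with a log2 fold change of 1.89 (SE 0.45, adjusted p = 0.0318). For Ogdh, a subunit of the oxoglutarate dehydrogenase complex, the levels were 90.9, 85.3 and 135 CPM in the HFpEF libraries and 294 and 296 in the PFD libraries, with a log2 fold change of 1.51 (SE 0.37, adjusted p = 0.0348). In Ogdh and in Cs, HFpEF replicate 3 was the highest of its group and still below the lower PFD library.

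Pdk4 encodes a kinase that turns off the pyruvate dehydrogenase complex and so spares glucose when fat is burned. Its level was 55.2, 28.5 and 140.0 CPM in the HFpEF libraries and 932 and 609.6 in the PFD libraries. Its rise was the largest among the DEGs with non-overlapping libraries and a mean of at least 5 CPM, once RT1 genes and symbols starting with LOC, RGD or AABR were left out, a log2 fold change of 3.37 (SE 0.66, adjusted p = 0.0291), which is 10.3-fold. Pdk4 also differed widely within HFpEF, where replicate 3 was highest.

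The electrons taken from these fuels pass through the respiratory chain, which drives ATP synthase. Of 49 nuclear genes for its subunits, 4 were DEGs and higher in PFD and 0 lower in edgeR, where 3.60% of all genes were higher DEGs. DEGs came to 25 higher and 0 lower by DESeq2 and 16 higher and 0 lower by limma voom. At an unadjusted p under 0.05 the list had 39 higher and 0 lower, where 16.8% of all genes were higher. All 49 had a positive log2 fold change, and 48 were higher without overlap, as were 25.7% of all genes. Their median was 1.16, and 0.88 without HFpEF replicate 1. Ndufs1, the largest subunit of complex I, stood at 155, 149 and 344 CPM in the HFpEF libraries and 900.0 and 945 in the PFD libraries, with a log2 fold change of 2.09 (SE 0.53, adjusted p = 0.0352). Sdha, the flavoprotein of complex II, stood at 243, 255 and 407 CPM in the HFpEF libraries and 902 and 1009.9 in the PFD libraries, with a log2 fold change of 1.66 (SE 0.39, adjusted p = 0.0318). Uqcrc2, a core protein of complex III, stood at 275, 378 and 542 CPM in the HFpEF libraries and 1163 and 1349 in the PFD libraries, with a log2 fold change of 1.66 (SE 0.43, adjusted p = 0.0360). The 3 genes shared a pattern in which HFpEF replicate 3 was the highest of its group and the PFD libraries lay well above it. Atp5f1b, the catalytic subunit of ATP synthase, had the highest level of the list at 2313, 2929 and 4966 CPM in the HFpEF libraries and 8574 and 8899 in the PFD libraries, and with a log2 fold change of 1.36 (SE 0.43, adjusted p = 0.0536) it was not a DEG. Genes for the mitochondrial ribosome, which makes the subunits that mitochondria encode, had a median of 0.79 over 41 genes (0.66 without HFpEF replicate 1). They held 2 DEGs higher (4.88%) and 0 lower, where 3.60% of all genes were higher DEGs. Among them was Mrpl3, at 61.1, 60.2 and 82.2 CPM in the HFpEF libraries and 158 and 160.3 in the PFD libraries, with a log2 fold change of 1.23 (SE 0.36, adjusted p = 0.0451).

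Regulators of this metabolism and targets of the nuclear receptor PPARα formed a list with ketone metabolism, in which 7 of 23 genes were DEGs and higher in PFD and 0 lower, with a median of 1.08 (0.86 without HFpEF replicate 1). Ppargc1a encodes the coactivator PGC-1α, which drives mitochondrial biogenesis, and stood at 6.03, 9.08 and 12.3 CPM in the HFpEF libraries and 28.9 and 27.8 in the PFD libraries. Both PFD libraries were above each HFpEF library, with a log2 fold change of 1.64 (SE 0.41, adjusted p = 0.0348). Esrrg, a nuclear receptor that works with this coactivator, stood at 6.17, 7.52 and 8.57 CPM in the HFpEF libraries and 26.9 and 23.5 in the PFD libraries, again without overlap, with a log2 fold change of 1.76 (SE 0.34, adjusted p = 0.0270).

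Glucose is another fuel of the ventricle and is stored there as glycogen. Of 24 genes of glucose uptake, glycolysis and glycogen turnover, 5 were DEGs and higher in PFD and 0 lower, with a median of 1.05 (0.91 without HFpEF replicate 1). Pygm, the muscle form of glycogen phosphorylase, which releases glucose units, stood at 156, 224 and 376 CPM in the HFpEF libraries and 955 and 1186 in the PFD libraries, with a log2 fold change of 2.09 (SE 0.49, adjusted p = 0.0318). Pygb, the brain form of the same enzyme, had a log2 fold change of 1.50 (SE 0.35, adjusted p = 0.0318), and Gys1, the glycogen synthase of muscle, one of 1.39 (SE 0.36, adjusted p = 0.0358). The groups did not overlap in any of these 3 genes. Hk2, a hexokinase that traps glucose in the cell, stood at 19, 8.80 and 17.2 CPM in the HFpEF libraries and 23.1 and 20.9 in the PFD libraries and was not a DEG, with a log2 fold change of 0.55 (SE 0.32, adjusted p = 0.240), and 0.28 without HFpEF replicate 2.

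Contraction rests on the sarcomere, in which myosin pulls on actin filaments anchored at the Z-disc. Of 25 genes of the sarcomere and Z-disc tested, 7 were DEGs and higher in PFD and 0 lower. All 25 had a positive log2 fold change, with a median of 1.32 and 1.13 without HFpEF replicate 1. Ldb3, a Z-disc protein that binds α-actinin, stood at 304, 594 and 900.5 CPM in the HFpEF libraries and 1859 and 1733 in the PFD libraries, with a log2 fold change of 1.58 (SE 0.37, adjusted p = 0.0318). Nebl, which binds actin at the Z-disc, stood at 28.3, 27.5 and 40.2 CPM in the HFpEF libraries and 77.8 and 72.0 in the PFD libraries, with a log2 fold change of 1.23 (SE 0.28, adjusted p = 0.0316). Myoz2, which links the Z-disc to calcineurin, stood at 335, 396 and 741 CPM in the HFpEF libraries and 1377 and 1068 in the PFD libraries, with a log2 fold change of 1.32 (SE 0.37, adjusted p = 0.0414). In these genes the lower PFD library was always above HFpEF replicate 3, the highest of its group.

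The rat ventricle uses mainly the fast α-myosin heavy chain, and stress shifts it toward the slow β form and toward genes of the fetal heart. Myh6, the α form, stood at 824, 5542 and 5863 CPM in the HFpEF libraries and 13810.4 and 21389 in the PFD libraries. HFpEF replicate 1 was far below the others, and the log2 fold change of 2.11 (SE 0.81, adjusted p = 0.0865) did not make it a DEG although the groups did not overlap. Myh7, the β form, overlapped between the groups at 3827, 1446 and 7192 CPM in the HFpEF libraries and 11275 and 6442 in the PFD libraries. Its log2 fold change of 1.09 (SE 0.78, adjusted p = 0.327) became 0.69 with HFpEF replicate 2 left out, 1.75 with HFpEF replicate 3 left out and 0.64 with PFD replicate 1 left out. The coding sequences of these myosins resemble each other closely, and reads shared between them were not tested. The natriuretic peptide gene Nppa stood at 2067, 251 and 1919 CPM in the HFpEF libraries and 2943 and 53.8 in the PFD libraries. PFD replicate 1 had the highest of these levels and PFD replicate 2 the lowest, so that the log2 fold change of 0.09 (SE 1.88, adjusted p = 0.978) became −4.71 without PFD replicate 1, −0.41 without HFpEF replicate 2 and 1.06 without PFD replicate 2. Nppb and the skeletal actin gene Acta1 also overlapped, with log2 fold changes of 0.76 (SE 0.69, adjusted p = 0.443) and 0.88 (SE 0.73, adjusted p = 0.405), which became −0.74 and −0.16 without PFD replicate 1. Of 19 fetal and hypertrophy genes, 2 were DEGs and higher and 1 lower, with a median of 0.50 (0.46 without HFpEF replicate 1 and 0.79 without PFD replicate 2). The lower one was Igf1, a growth factor made by fibroblasts and macrophages. It fell from 132, 78.7 and 67.4 CPM in HFpEF to 17.3 and 16.3 in PFD, with a log2 fold change of −2.47 (SE 0.55, adjusted p = 0.0314).

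**Figure D2:**
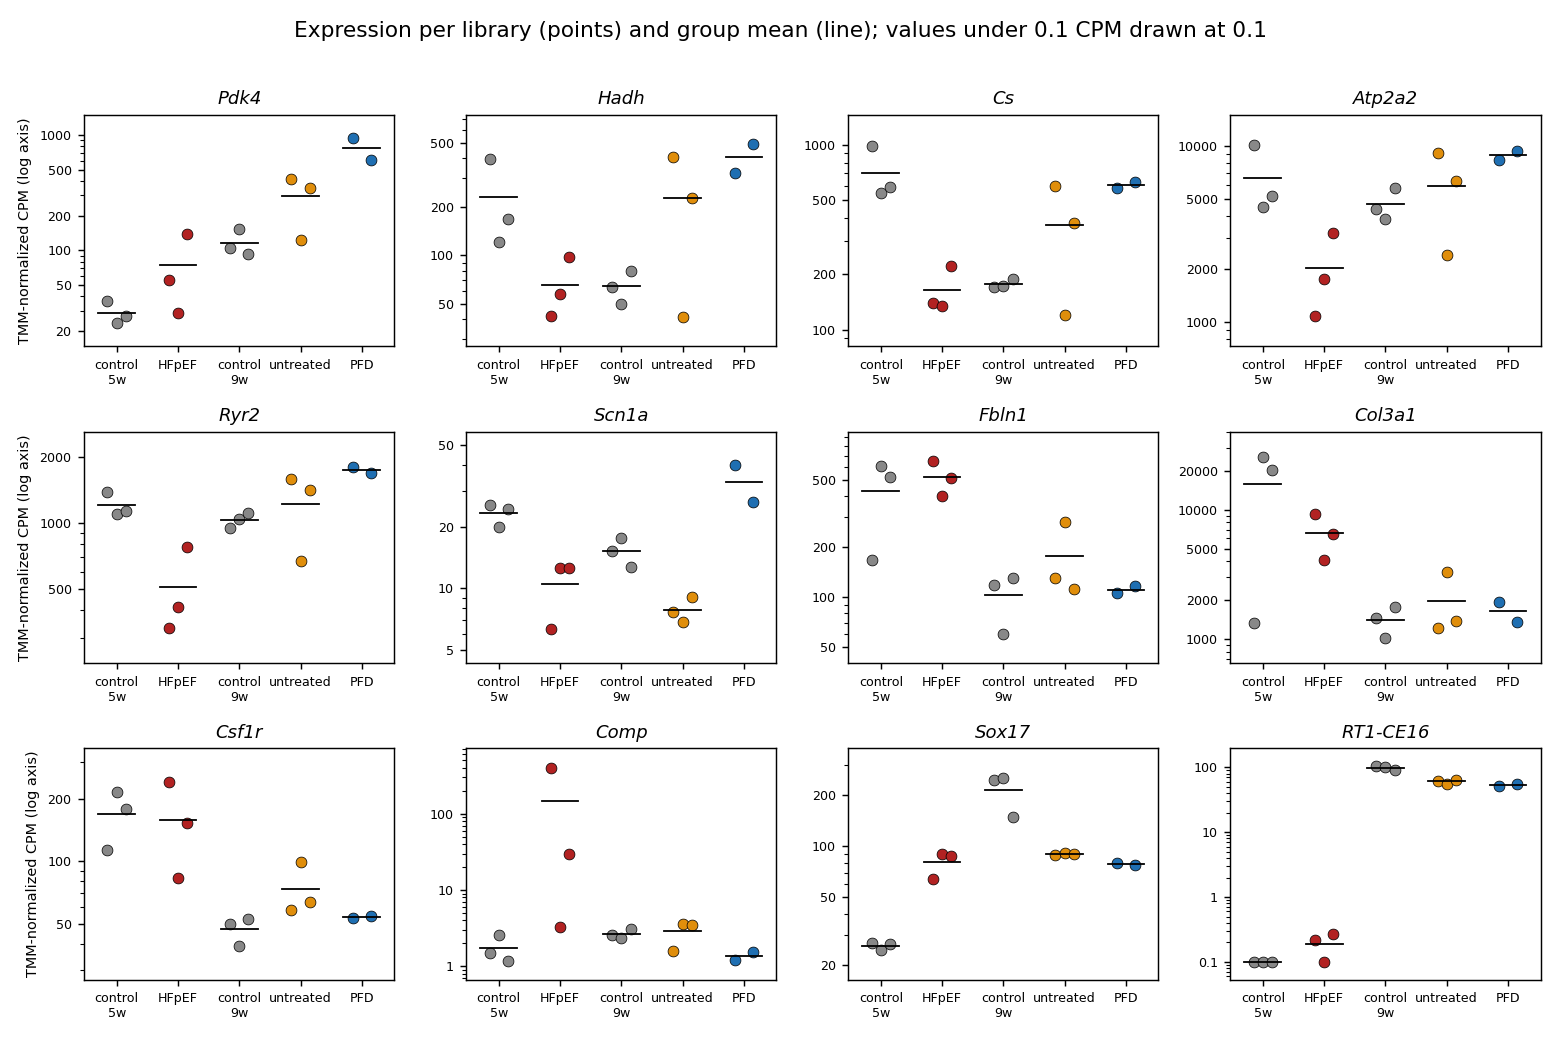
TMM-normalized CPM (log axis) of 12 genes in each control, HFpEF, untreated and PFD library (points) with the group mean (line). Both PFD libraries of Cs (585 and 632 CPM) lie above its HFpEF libraries (139, 135 and 220.1 CPM), and both PFD libraries of Fbln1 (105 and 117 CPM) lie below its HFpEF libraries (650.1, 403 and 515 CPM).

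Each contraction starts when calcium leaves the sarcoplasmic reticulum and ends when it is pumped back. Among 22 genes of calcium handling, 11 were DEGs and higher in PFD and 0 lower, with a median of 1.16 and 0.99 without HFpEF replicate 1. Ryr2, the release channel, stood at 333, 415 and 777 CPM in the HFpEF libraries and 1795 and 1695 in the PFD libraries, with a log2 fold change of 1.78 (SE 0.36, adjusted p = 0.0307). Atp2a2, the pump SERCA2, stood at 1091, 1774 and 3200.3 CPM in the HFpEF libraries and 8367 and 9351 in the PFD libraries, with a log2 fold change of 2.13 (SE 0.53, adjusted p = 0.0348). HFpEF replicate 3 was again the highest of its group in both, at less than the level of either PFD library. Trdn, which anchors calsequestrin at the release channel, stood at 27.8, 41.6 and 47.2 CPM in the HFpEF libraries and 106 and 117 in the PFD libraries, with a log2 fold change of 1.52 (SE 0.32, adjusted p = 0.0307). S100a1, a calcium sensor that acts on the pump and the channel, was narrowly spread within each group at 13.9, 20.1 and 22.1 CPM in the HFpEF libraries and 41.8 and 42.5 in the PFD libraries, with a log2 fold change of 1.18 (SE 0.22, adjusted p = 0.0245). Casq1, the calsequestrin best known from skeletal muscle, stood at 13.3, 10.7 and 18.1 CPM in the HFpEF libraries and 53.3 and 68.6 in the PFD libraries, with a log2 fold change of 2.12 (SE 0.37, adjusted p = 0.0245). None of these 3 genes overlapped between the groups.

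Potassium and sodium channels shape the action potential. Of 22 potassium channel genes, 7 were DEGs and higher in PFD and 0 lower, with a median of 1.27 (1.03 without HFpEF replicate 1). Kcnd2, a pore subunit of the transient outward current, stood at 1.58, 1.56 and 2.59 CPM in the HFpEF libraries and 4.93 and 8.95 in the PFD libraries, with a log2 fold change of 1.86 (SE 0.44, adjusted p = 0.0318). Kcnj3, a subunit of the channel opened by acetylcholine and most abundant in atria, stood at 2.80, 2.57 and 5.63 CPM in the HFpEF libraries and 15.7 and 17.4 in the PFD libraries, with a log2 fold change of 2.18 (SE 0.54, adjusted p = 0.0346). Kcnk3, a background channel sensitive to acid, stood at 4.81, 5.87 and 9.02 CPM in the HFpEF libraries and 24.6 and 22.7 in the PFD libraries, with a log2 fold change of 1.85 (SE 0.46, adjusted p = 0.0348). All were scarce in HFpEF, and the groups did not overlap.

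Of 12 voltage-gated sodium channel genes, 2 were DEGs and higher in PFD and 0 lower. Their median of 0.21 became 0.09 with HFpEF replicate 1 left out, 0.39 with HFpEF replicate 3 left out and −0.20 with PFD replicate 2 left out. It was 0.68 over genes with a mean of at least 1 CPM and 0.70 when only the groups compared were fitted. Scn1a, a pore subunit best known from neurons, stood at 6.32, 12.6 and 12.5 CPM in the HFpEF libraries and 39.9 and 26.5 in the PFD libraries, with a log2 fold change of 1.67 (SE 0.27, adjusted p = 0.0212). Scn4b, an auxiliary subunit, stood at 14.2, 30.4 and 27.0 CPM in the HFpEF libraries and 70.7 and 159 in the PFD libraries, with a log2 fold change of 2.27 (SE 0.61, adjusted p = 0.0389). For both genes the lower PFD library exceeded the highest HFpEF library by more than the HFpEF libraries differed among themselves.

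Hormones reach the heartbeat through receptors, protein kinases A and C and calmodulin kinase. Of 38 genes of these pathways, 4 were DEGs and higher in PFD and 2 lower, and their median was 0.02, which ran from −0.02 without HFpEF replicate 1 to 0.16 without HFpEF replicate 2. Adra1a, an α1-adrenergic receptor, was low in both groups at 0.718, 1.56 and 2.23 CPM in the HFpEF libraries and 5.92 and 9.16 in the PFD libraries, with a log2 fold change of 2.34 (SE 0.46, adjusted p = 0.0306). Prkaca, the catalytic subunit of protein kinase A, stood at 86.0, 111 and 126 CPM in the HFpEF libraries and 230.0 and 254 in the PFD libraries, with a log2 fold change of 1.17 (SE 0.30, adjusted p = 0.0352). Prkcz, an atypical protein kinase C, went the other way at 11.8, 6.97 and 6.43 CPM in the HFpEF libraries and 1.97 and 3.39 in the PFD libraries, with a log2 fold change of −1.64 (SE 0.37, adjusted p = 0.0314). The PFD libraries did not overlap with HFpEF in any of the 3 genes. In the nitric oxide and cGMP pathway, which L-NAME blocks at its first step, 1 of 19 genes was a DEG and higher and 1 lower. Of all genes, 3.60% were higher DEGs and 2.36% lower ones. Their median was −0.10 and ran from −0.19 without HFpEF replicate 1 to 0.20 without HFpEF replicate 2.

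Fibrosis is the deposit of collagen and other matrix by fibroblasts. Of 21 collagen genes listed, 15 were in the files and all of these were tested. Among them 0 were DEGs and higher in PFD and 0 lower in edgeR. Without overlap, 13 were lower, as were 27.3% of all genes, and 1 was higher, as were 25.7% of all genes. At an unadjusted p under 0.05 the list had 0 higher and 7 lower of 15, where 18.1% of all genes were lower, with 0 higher and 6 lower DEGs by DESeq2 and 0 higher and 6 lower by limma voom. Their median was −1.74, and −0.85 without HFpEF replicate 1. The summed level was 18424, 8277 and 12419 CPM in HFpEF and 5197 and 4188 CPM in PFD. Col3a1, the most abundant of them, stood at 9269.7, 4081 and 6497 CPM in the HFpEF libraries and 1950.5 and 1351 in the PFD libraries. The PFD libraries were below all HFpEF libraries, and the log2 fold change was −2.00 (SE 0.86, adjusted p = 0.115), and −1.68 without HFpEF replicate 1. Col1a1, the other main fibrillar collagen, stood at 2542, 839.6 and 1469 CPM in the HFpEF libraries and 519.9 and 364 in the PFD libraries, with a log2 fold change of −1.87 (SE 1.01, adjusted p = 0.197), and −1.39 without HFpEF replicate 1. In both, HFpEF replicate 2 was the nearest to the PFD libraries.

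The rest of the matrix list held glycoproteins, proteoglycans, crosslinking enzymes, proteases and their inhibitors. Of 32 genes tested, 3 were DEGs and lower in PFD and 0 higher in edgeR, where 2.36% of all genes were lower DEGs. Without overlap, 25 were lower, as were 27.3% of all genes, and the median was −1.69 (−1.32 without HFpEF replicate 1). At an unadjusted p under 0.05 the list had 0 higher and 23 lower, where 18.1% of all genes were lower. DEGs came to 0 higher and 19 lower by DESeq2 and 0 higher and 19 lower by limma voom. Fbln1, a glycoprotein of elastic fibers and basement membranes, stood at 650.1, 403 and 515 CPM in the HFpEF libraries and 105 and 117 in the PFD libraries, and it fell in PFD with a log2 fold change of −2.24 (SE 0.57, adjusted p = 0.0354). Timp2, an inhibitor of matrix proteases, stood at 649.9, 348 and 479 CPM in the HFpEF libraries and 162 and 162 in the PFD libraries, with a log2 fold change of −1.61 (SE 0.41, adjusted p = 0.0356). The PFD libraries were nearly equal to each other in both genes. Timp1, another inhibitor of this family, stood at 214, 33.9 and 118 CPM in the HFpEF libraries and 22.7 and 12.2 in the PFD libraries, with a log2 fold change of −2.80 (SE 0.91, adjusted p = 0.0569) that missed the threshold. Fn1, fibronectin, had a log2 fold change of −2.52 (SE 1.10, adjusted p = 0.119) and Lox, which crosslinks collagen, one of −1.69 (SE 0.82, adjusted p = 0.155), and −1.12 without HFpEF replicate 1. Neither was a DEG, and neither overlapped between the groups. Postn, made by activated fibroblasts, stood at 1179, 127 and 879.6 CPM in the HFpEF libraries and 168 and 25.5 in the PFD libraries and overlapped, with a log2 fold change of −2.92 (SE 1.48, adjusted p = 0.173), and −4.83 without PFD replicate 1.

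TGF-β drives fibroblasts to make matrix and is held to be a point at which PFD acts. Of 22 genes for its ligands, receptors and targets, 0 were DEGs and higher and 0 lower in edgeR, and 1 was lower by adjusted p alone. At an unadjusted p under 0.05 the list had 0 higher and 9 lower of 22, where 18.1% of all genes were lower, with 0 higher and 2 lower DEGs by DESeq2 and 0 higher and 2 lower by limma voom. The median was −0.66, and −0.46 without HFpEF replicate 1. The gene lower by adjusted p alone was the ligand Tgfb1, which stood at 118, 76.9 and 98.0 CPM in the HFpEF libraries and 56.1 and 53.0 in the PFD libraries. Its groups did not overlap, and the log2 fold change of −0.84 (SE 0.20, adjusted p = 0.0325) lay below the minimum of 1 for a DEG. Tgfb3, another ligand, stood at 376, 247 and 237 CPM in the HFpEF libraries and 76.8 and 70.4 in the PFD libraries, also without overlap, with a log2 fold change of −1.96 (SE 0.69, adjusted p = 0.0689). Tgfb2 overlapped at 51.0, 22.8 and 43.5 CPM in the HFpEF libraries and 68.4 and 27.6 in the PFD libraries, and its log2 fold change of 0.29 (SE 0.68, adjusted p = 0.786) became −0.51 without PFD replicate 1. Among the targets, Ccn2, a matrix protein that TGF-β induces, stood at 2102, 428 and 1053 CPM in the HFpEF libraries and 635 and 213 in the PFD libraries and overlapped. Its log2 fold change of −1.50 (SE 1.05, adjusted p = 0.322) became −0.81 without HFpEF replicate 1, −2.49 without PFD replicate 1 and −0.91 without PFD replicate 2. Acta2, the actin of smooth muscle and myofibroblasts, stood at 385, 114 and 173 CPM in the HFpEF libraries and 103 and 101 in the PFD libraries, with a log2 fold change of −1.13 (SE 0.60, adjusted p = 0.187), and −0.49 without HFpEF replicate 1.

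Fibroblast markers are given beside the matrix genes. Of 17 markers, 0 were DEGs and higher and 0 lower in edgeR, none had a positive log2 fold change, and the median was −1.36 (−1.05 without HFpEF replicate 1). At an unadjusted p under 0.05 the list had 0 higher and 8 lower of 17, where 18.1% of all genes were lower, with 0 higher and 5 lower DEGs by DESeq2 and 0 higher and 6 lower by limma voom. Their summed level was 14174, 15202 and 13336 CPM in HFpEF and 6431 and 8365 CPM in PFD, with Gsn the most abundant at 2847, 6106 and 4305 CPM in HFpEF and 2618 and 4642 CPM in PFD. The list shares collagen genes and Postn with the matrix lists, no marker was at 0, and the part of fibroblast content in the matrix values was not tested.

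Macrophages live in the healthy ventricle and multiply when it is injured. Of 20 macrophage and myeloid genes, 11 were DEGs and lower in PFD and 0 higher, where 2.36% of all genes were lower DEGs. Their median was −1.67, and −1.14 without HFpEF replicate 1. Their summed level was 4382, 1055 and 2575 CPM in HFpEF and 837 and 632 CPM in PFD, and HFpEF replicate 2 was the closest to the PFD libraries. Csf1r, the receptor for the main macrophage growth factor, stood at 239, 83.3 and 153 CPM in the HFpEF libraries and 53.3 and 54.2 in the PFD libraries, with a log2 fold change of −1.56 (SE 0.39, adjusted p = 0.0350). Fcer1g and Tyrobp, adaptors that carry signals of myeloid receptors, stood at 103, 35.9 and 61.4 and at 81.7, 29.3 and 48.7 CPM in HFpEF, and at 18.1 and 17.6 and at 16.5 and 13.3 CPM in PFD. They fell without overlap, with log2 fold changes of −1.90 (SE 0.41, adjusted p = 0.0313) and −1.84 (SE 0.42, adjusted p = 0.0318). Lyz2, the lysozyme of myeloid cells and the most abundant gene of the list, stood at 1835, 287 and 993 CPM in the HFpEF libraries and 231 and 149 in the PFD libraries, with a log2 fold change of −2.45 (SE 0.72, adjusted p = 0.0458). Lymphocyte genes had 0 DEGs higher and 0 lower of 16 in edgeR, with a median of −1.11, and −0.93 without HFpEF replicate 1, −0.62 without PFD replicate 1 and −1.84 without PFD replicate 2. By unadjusted p under 0.05 these were 0 higher and 6 lower of 16, where 18.1% of all genes were lower. The DEGs were 0 higher and 3 lower in DESeq2 and 0 higher and 6 lower in limma voom.

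Chemokines call such cells into tissue. Of 27 genes for cytokines, chemokines and their receptors, 4 were DEGs and lower in PFD and 0 higher, with a median of −0.89 (−0.52 without HFpEF replicate 1). Ccl21, which guides dendritic cells and T cells, stood at 865, 174 and 283 CPM in the HFpEF libraries and 25.7 and 65.3 in the PFD libraries, with a log2 fold change of −3.27 (SE 0.84, adjusted p = 0.0357). Ccl4, which draws macrophages and T cells, was low throughout at 5.31, 6.33 and 5.81 CPM in the HFpEF libraries and 0.438 and 1.85 in the PFD libraries, with a log2 fold change of −2.32 (SE 0.60, adjusted p = 0.0360), and −3.70 without PFD replicate 2. Both fell without overlap, and the rat genome holds near copies of Ccl21 whose shared reads were not tested. Tnfrsf1a, the main receptor for tumor necrosis factor, stood at 181, 119 and 144 CPM in the HFpEF libraries and 77.0 and 71.1 in the PFD libraries, with a log2 fold change of −1.0 (SE 0.27, adjusted p = 0.0388). Genes of the NF-κB pathway had 0 DEGs higher and 0 lower of 17 in edgeR, with a median of −0.15, and genes of the interferon response 0 and 0 of 23, with a median of −0.25. The NF-κB median ran from −0.31 without HFpEF replicate 1 to −0.21 without PFD replicate 2, and the interferon median ran from −0.51 without PFD replicate 1 to −0.07 without PFD replicate 2. Unadjusted p under 0.05 gave 2 higher and 4 lower for NF-κB genes and 0 and 5 for interferon genes. Of all genes, 16.8% were higher and 18.1% lower at this p. DEGs came to 1 higher and 1 lower for NF-κB genes and 0 and 0 for interferon genes in DESeq2, and to 1 higher and 1 lower for NF-κB genes and 0 and 0 for interferon genes in limma voom.

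**Figure D3:**
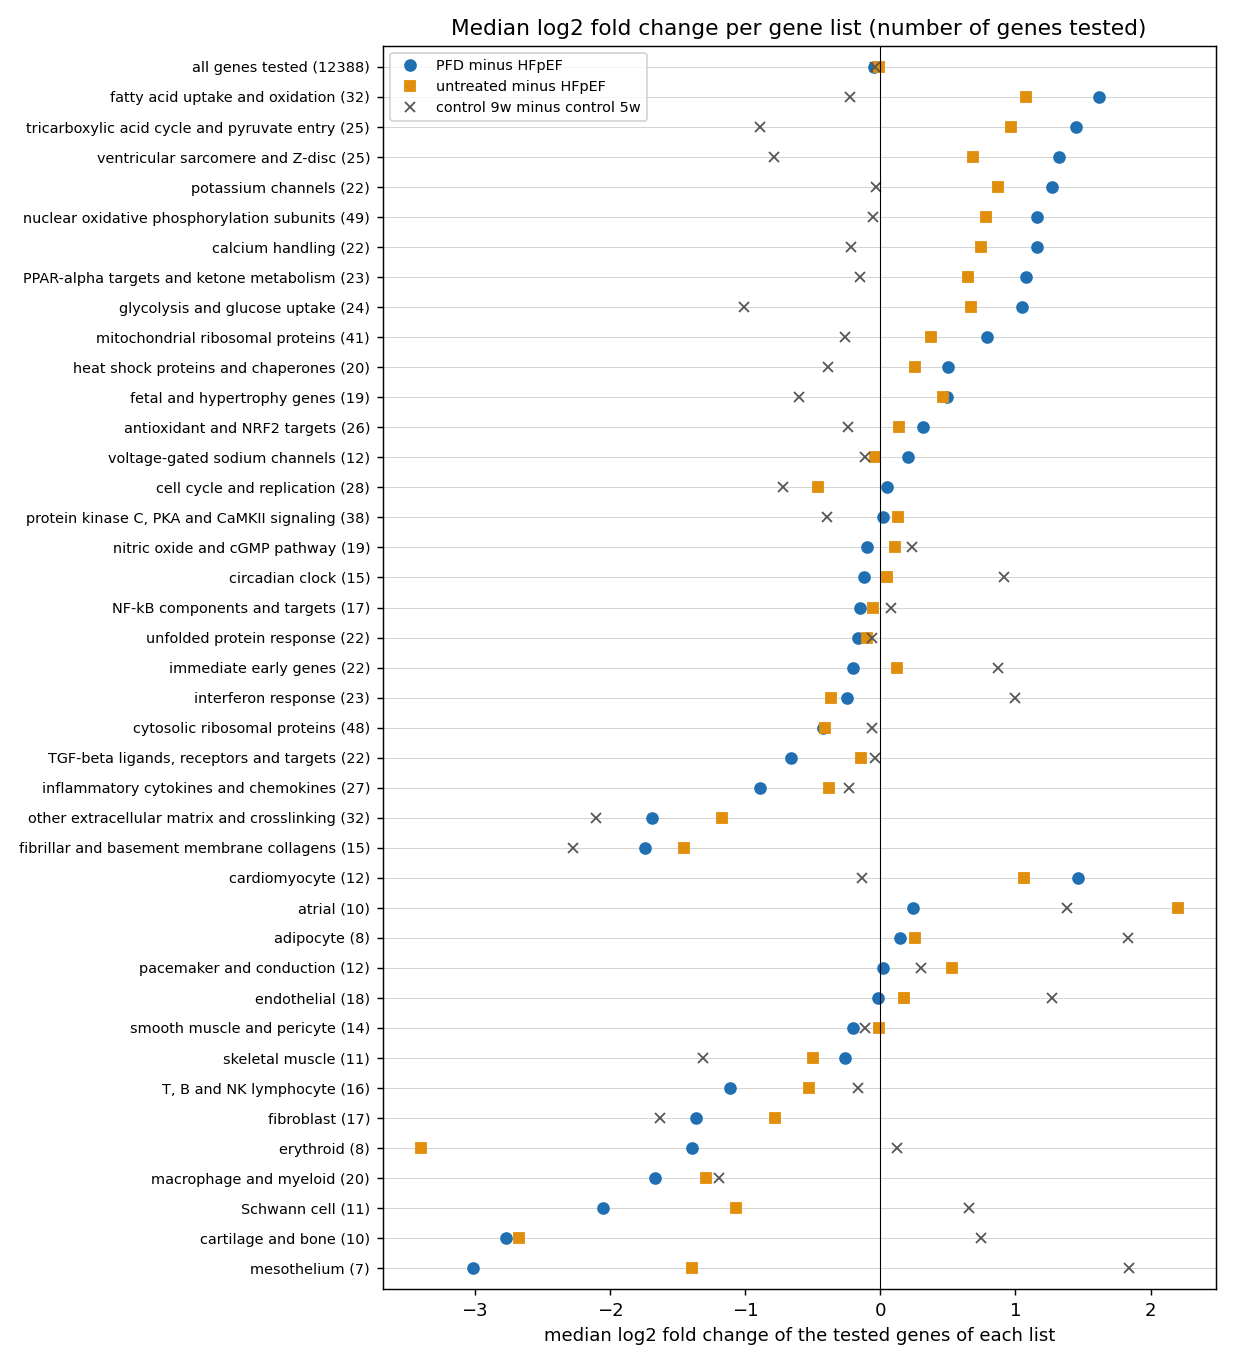
Median log2 fold change over the tested genes of each list (number in brackets) from HFpEF to PFD (circles), from HFpEF to untreated (squares) and from control week 5 to control week 9 (crosses), with lists of processes above and of cell types below. Fatty acid genes have 1.62, 1.08 and −0.22, and collagens −1.74, −1.45 and −2.27.

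Chaperones fold proteins and protect the sarcomere under load. Of 20 heat shock protein and chaperone genes, 3 were DEGs and higher in PFD and 0 lower, with a median of 0.50 (0.55 without HFpEF replicate 1). Bag3 and its partner Hspb8, which clear damaged filament proteins, stood at 169, 142 and 246 and at 189.9, 172 and 289 CPM in HFpEF, and at 471 and 384 and at 527 and 486 CPM in PFD. Both rose without overlap, with log2 fold changes of 1.20 (SE 0.32, adjusted p = 0.0385) and 1.22 (SE 0.31, adjusted p = 0.0359). Hspa9, the chaperone of the mitochondrial matrix, stood at 126, 91.2 and 191 CPM in the HFpEF libraries and 407 and 441 in the PFD libraries, with a log2 fold change of 1.64 (SE 0.43, adjusted p = 0.0363). The unfolded protein response of the endoplasmic reticulum had 0 DEGs higher and 0 lower of 22 in edgeR. Its median was −0.16 and ran from −0.25 without PFD replicate 1 to −0.03 without HFpEF replicate 1. By unadjusted p under 0.05 these were 2 higher and 3 lower of 22, where 16.8% of all genes were higher and 18.1% lower. The DEGs were 0 higher and 0 lower in DESeq2 and 0 higher and 0 lower in limma voom.

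Antioxidant enzymes remove peroxides and other oxidants. The list of 26 genes held 3 DEGs higher and 1 lower in PFD, with a median of 0.32, and 0.31 without HFpEF replicate 1 and 0.13 without PFD replicate 1. Prdx3, the peroxiredoxin of mitochondria, stood at 115, 149.9 and 217 CPM in the HFpEF libraries and 419.5 and 468 in the PFD libraries, with a log2 fold change of 1.47 (SE 0.40, adjusted p = 0.0398). Cat, the catalase of peroxisomes, stood at 141, 155 and 215 CPM in the HFpEF libraries and 346 and 370.0 in the PFD libraries, with a log2 fold change of 1.07 (SE 0.30, adjusted p = 0.0427). Gpx3, a secreted glutathione peroxidase, fell from 1195, 1395 and 1196 CPM in HFpEF to 432 and 459 in PFD, with a log2 fold change of −1.50 (SE 0.44, adjusted p = 0.0460). The groups did not overlap in these 3 genes.

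Ribosomal proteins build the ribosomes of the cytosol. Of 48 of their genes, 1 was a DEG and lower in PFD (2.36% of all genes were) and 0 higher. By adjusted p alone, 13 were lower (4.71% of all genes were). Without overlap, 40 were lower (27.3% of all genes were), and the median was −0.42 (−0.40 without HFpEF replicate 1). The DEG was Rpl3, a protein of the large subunit, at 1183, 819 and 878 CPM in the HFpEF libraries and 480.3 and 392 in the PFD libraries, with a log2 fold change of −1.14 (SE 0.33, adjusted p = 0.0456). Among the immediate early genes, 1 of 22 (4.55%) was a DEG and higher and 0 lower, where 3.60% of all genes were higher DEGs. Their median was −0.20, which ran from −0.30 without PFD replicate 1 to −0.09 without PFD replicate 2. The circadian clock had 0 DEGs higher and 0 lower of 15 genes in edgeR, with a median of −0.12, and the cell cycle 0 and 0 of 28, with a median of 0.05. The clock median ran from −0.34 without HFpEF replicate 2 to 0.05 without HFpEF replicate 3, and the cell cycle median ran from −0.46 without PFD replicate 1 to 0.50 without PFD replicate 2. Unadjusted p under 0.05 gave 1 higher and 0 lower for clock genes and 0 and 0 for cell cycle genes. Of all genes, 16.8% were higher and 18.1% lower at this p. DEGs came to 0 higher and 0 lower for clock genes and 0 and 0 for cell cycle genes in DESeq2, and to 1 higher and 0 lower for clock genes and 0 and 0 for cell cycle genes in limma voom.

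Large rises were found outside these lists as well. Sphkap, which anchors protein kinase A, stood at 4.81, 4.22 and 8.40 CPM in the HFpEF libraries and 42.9 and 56.2 in the PFD libraries, with a log2 fold change of 3.09 (SE 0.54, adjusted p = 0.0245). Akr1b10, an aldo-keto reductase, stood at 3.23, 5.04 and 5.18 CPM in the HFpEF libraries and 23.7 and 30.5 in the PFD libraries, with a log2 fold change of 2.60 (SE 0.45, adjusted p = 0.0245). The lowest PFD library was at least as far above the HFpEF libraries as these lay from each other in both genes. Fads6, a relative of the fatty acid desaturases, stood at 1.36, 2.29 and 3.22 CPM in the HFpEF libraries and 9.86 and 25.8 in the PFD libraries, with a log2 fold change of 2.97 (SE 0.77, adjusted p = 0.0360). Cdnf, a secreted factor of the endoplasmic reticulum, stood at 2.15, 3.48 and 4.38 CPM in the HFpEF libraries and 15.7 and 21.6 in the PFD libraries, with a log2 fold change of 2.49 (SE 0.62, adjusted p = 0.0350). Rd3l, a relative of the retinal gene Rd3, stood at 3.44, 9.44 and 19.3 CPM in the HFpEF libraries and 66.9 and 54.6 in the PFD libraries, with a log2 fold change of 2.51 (SE 0.64, adjusted p = 0.0354). These 3 genes were scarce in HFpEF and did not overlap either.

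In the largest falls HFpEF replicate 1 often had the highest level. Comp, a matrix protein of cartilage and tendon, stood at 402, 3.30 and 29.4 CPM in the HFpEF libraries and 1.20 and 1.54 in the PFD libraries, with a log2 fold change of −6.71 (SE 1.89, adjusted p = 0.0425), and −3.56 without HFpEF replicate 1. Serpina3n, an inhibitor of serine proteases induced in inflammation, stood at 185, 13.8 and 51.8 CPM in the HFpEF libraries and 0.110 and 4.01 in the PFD libraries, with a log2 fold change of −5.31 (SE 1.55, adjusted p = 0.0451), and −3.97 without that library and −9.42 without PFD replicate 2. Ecrg4, a secreted peptide precursor, stood at 30.4, 3.21 and 5.36 CPM in the HFpEF libraries and 0.657 and 0.206 in the PFD libraries, with a log2 fold change of −4.89 (SE 1.35, adjusted p = 0.0404), and −3.29 without it. HFpEF replicate 1 had the highest level of all 3 genes by several-fold. Prrx2, a homeobox factor of mesenchyme, was spread less within HFpEF, at 17.2, 8.25 and 9.38 CPM in the HFpEF libraries and 0.986 and 0.720 in the PFD libraries, with a log2 fold change of −3.75 (SE 1.10, adjusted p = 0.0456), and −3.35 without HFpEF replicate 1. Fst, which binds activin, stood at 61.8, 10.1 and 13.9 CPM in the HFpEF libraries and 2.63 and 2.16 in the PFD libraries, with a log2 fold change of −3.58 (SE 1.06, adjusted p = 0.0467), and −2.32 without it. Ajap1, a protein of cell junctions, and Fcgr3a, an antibody receptor of myeloid cells, had log2 fold changes of −3.66 (SE 0.99, adjusted p = 0.0388) and −3.66 (SE 0.89, adjusted p = 0.0337), which became −1.69 and −2.75. None of these falls was a DEG without HFpEF replicate 1, and all kept their direction. Fcgr3a has near copies in the rat genome, and their shared reads were not tested.

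Markers of other tissues were counted in every library as well. Of 10 cartilage and bone markers tested, 1 was a DEG and lower in PFD and 0 higher, with a median of −2.77, −2.03 with markers at or under 3 counts per library at their bound, −0.18 without HFpEF replicate 1 and −4.43 without PFD replicate 1. Their summed level was 1804, 137 and 133 CPM in HFpEF and 92.2 and 111 CPM in PFD. Col2a1, the collagen that defines cartilage and the most abundant of these in HFpEF replicate 1, had 15993, 1 and 20 counts in HFpEF and 1 and 0 in PFD. The signal was thus in HFpEF replicate 1 almost alone, and the part of cartilage in the falls of Comp and other genes was not tested.

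Of 11 Schwann cell markers, 3 were DEGs and lower in PFD and 0 higher, where 2.36% of all genes were lower DEGs. Without overlap, 7 were lower, as were 27.3% of all genes, and the markers had a median of −2.05 (−0.91 without HFpEF replicate 1). Their summed level was 1133, 399 and 476 CPM in HFpEF and 213 and 239 CPM in PFD. S100b, a calcium-binding protein of glia, stood at 61.2, 2.29 and 9.38 CPM in the HFpEF libraries and 1.20 and 0.823 in the PFD libraries, with a log2 fold change of −4.58 (SE 1.30, adjusted p = 0.0435), and −2.52, no longer a DEG, without HFpEF replicate 1. Cnp and Pmp22, proteins of myelin that other cells make too, stood at 175, 86.5 and 91.1 and at 393, 232 and 265 CPM in HFpEF, and at 45.1 and 45.5 and at 117 and 109 CPM in PFD. They fell without overlap, with log2 fold changes of −1.38 (SE 0.37, adjusted p = 0.0397) and −1.40 (SE 0.42, adjusted p = 0.0486), and Pmp22 was the most abundant gene of the list.

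Of 7 markers of the mesothelium, the sheet that covers the heart, 2 were DEGs and lower and 0 higher, with a median of −3.01, −2.71 with bounds and −2.14 without HFpEF replicate 1. Summed, they came to 124, 124 and 157 CPM in HFpEF and 136 and 97.4 CPM in PFD, with Wt1, which endothelial and other cells also make, the larger part in every library but HFpEF replicate 1, where it stood at 43.3 CPM. Msln, mesothelin, which defines this layer, had 233, 6 and 4 counts in HFpEF and 1 and 0 in PFD, and was thus high in HFpEF replicate 1. Upk1b, a membrane protein of the mesothelium, had 84, 16 and 51 counts in HFpEF and 3 and 3 in PFD. C3, the complement component, stood at 44.6, 2.75 and 22.9 CPM in the HFpEF libraries and 4.16 and 1.65 in the PFD libraries and overlapped between the groups, although it was a DEG with a log2 fold change of −3.01 (SE 0.80, adjusted p = 0.0385).

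Erythroid markers, a measure of blood left in the tissue, had 1 DEG lower of 8 and 0 higher, with a median of −1.39 (−1.29 without HFpEF replicate 1). Their summed level was 1875, 1487 and 4044 CPM in HFpEF, 752 and 903 CPM in PFD and 269, 221 and 342 CPM in the untreated libraries. Hba-a1, an α-globin, stood at 93.6, 95.4 and 247 CPM in the HFpEF libraries and 21.4 and 25.0 in the PFD libraries, with a log2 fold change of −2.65 (SE 0.75, adjusted p = 0.0426). Hbb, a β-globin and the most abundant of the list, stood at 1601, 1269 and 3531 CPM in the HFpEF libraries and 651 and 776 in the PFD libraries, with a log2 fold change of −1.58 (SE 0.66, adjusted p = 0.105) that did not make it a DEG, and −1.01 without HFpEF replicate 3. Globin genes have near copies, and their shared reads were not tested.

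Markers of the other cell types are given last. Atrial markers summed to 2512, 388 and 2217 CPM in HFpEF and 3212 and 268 CPM in PFD, led by Nppa in most libraries, with 1 DEG higher and 0 lower of 10. Their median was 0.24, 0.35 with bounds, 0.28 without HFpEF replicate 1 and −0.64 without PFD replicate 1. Endothelial genes had 0 DEGs higher and 0 lower of 18 in edgeR. Their median was −0.02 and ran from −0.28 without HFpEF replicate 1 to 0.25 without HFpEF replicate 2, with summed levels of 4062, 7727 and 6761 CPM in HFpEF and 5661 and 5905 CPM in PFD. By unadjusted p under 0.05 these were 0 higher and 2 lower of 18, where 18.1% of all genes were lower. The DEGs were 0 higher and 1 lower in DESeq2 and 0 higher and 1 lower in limma voom. The median over 14 smooth muscle and pericyte genes was −0.20, and −0.23 without HFpEF replicate 1. Pacemaker and conduction genes, 12 in number, had a median of 0.02, which ran from −0.17 without PFD replicate 1 to 0.12 without PFD replicate 2. Neither list held a DEG in edgeR. Unadjusted p under 0.05 gave 1 higher and 3 lower for smooth muscle genes and 2 and 2 for pacemaker genes. Of all genes, 16.8% were higher and 18.1% lower at this p. DEGs came to 0 higher and 0 lower for smooth muscle genes and 0 and 2 for pacemaker genes in DESeq2, and to 0 higher and 0 lower for smooth muscle genes and 0 and 0 for pacemaker genes in limma voom. Adipocyte genes had 1 DEG higher and 1 lower of 8, and their median of 0.14 ran from −0.69 without PFD replicate 1 to 0.69 without HFpEF replicate 1. Skeletal muscle genes had 1 DEG higher and 0 lower of 11, and their median of −0.26 ran from −0.47 without PFD replicate 2 to −0.13 without HFpEF replicate 1.

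The sizes of the main differences without HFpEF replicate 1 are given here for genes named above. The log2 fold changes became 2.40 for Hadh, 1.78 for Cs, 1.90 for Ndufs1, 3.19 for Pdk4, 1.55 for Ryr2, 1.83 for Atp2a2 and 2.97 for Sphkap. Among the genes that fell they became −2.05 for Fbln1, −1.36 for Timp2, −1.14 for Csf1r and −2.12 for Igf1. None of these 11 genes was a DEG in that fit.

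PFD was next set beside the untreated hearts, which were of the same week. Both comparisons with HFpEF share its 3 libraries, so their values are given side by side. From HFpEF to untreated, the median log2 fold change was 1.08 for fatty acid genes, 0.97 for the TCA cycle, 0.78 for the respiratory chain, 0.69 for the sarcomere and 0.74 for calcium handling. From HFpEF to PFD these medians were 1.62, 1.45, 1.16, 1.32 and 1.16. Collagens had −1.45 in untreated and −1.74 in PFD, other matrix genes −1.17 and −1.69, macrophage genes −1.29 and −1.67 and TGF-β genes −0.14 and −0.66.

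Untreated replicate 2 stood apart from the other untreated libraries. Its cardiomyocyte markers summed to 31416 CPM, against 81527 and 70114 in the others, and its Nppa level was 9671 CPM, against 18.9 and 434. All its atrial markers summed to 15230.0 CPM, against 227 and 608, and the part of atrial tissue in the untreated values was not tested. Leaving it out, a setting chosen after seeing the data, moved the medians of untreated against HFpEF to 1.49 for fatty acid genes, 1.35 for the TCA cycle, 1.08 for the sarcomere, −1.79 for collagens, −1.67 for other matrix genes, −1.72 for macrophage genes and −0.29 for TGF-β genes. The medians of PFD against untreated moved from 0.57 to 0.13 for fatty acid genes, from 0.53 to 0.14 for the TCA cycle, from 0.46 to 0.10 for the respiratory chain, from 0.59 to 0.24 for the sarcomere and from −0.33 to 0.06 for macrophage genes. They moved from −0.25 to 0.08 for collagens, from −0.61 to −0.02 for other matrix genes and from −0.24 to −0.09 for TGF-β genes. For PPARα targets they moved from 0.54 to 0.32 and for the cell cycle from 0.59 to 0.65. Erythroid markers moved from 1.65 to 1.47 and lymphocyte genes from −0.48 to −0.45. Schwann cell markers moved from −0.979 to −0.197, mesothelium markers from −0.819 to −0.0838 and fibroblast markers from −0.412 to 0.00128. The atrial median of PFD against untreated moved from −1.91 to 0.60.

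Between PFD and untreated hearts, 1 gene (0.00807%) was a DEG by edgeR, with 646 genes at an unadjusted p under 0.05, 4 DEGs by DESeq2 and 5 by limma voom. It was Scn1a, which stood at 7.70, 6.82 and 9.06 CPM in the untreated libraries and at 39.9 and 26.5 in PFD. From HFpEF to untreated its log2 fold change was −0.41, and from HFpEF to PFD it was 1.67. Scn1a stood at 25.6, 20.0 and 24.5 CPM in the controls of week 5 and 15.2, 17.6 and 12.7 in those of week 9, all below PFD replicate 1. Its log2 fold change between PFD and untreated was 2.08 (SE 0.28) and lay between 1.75 without PFD replicate 1 and 2.34 without PFD replicate 2 in all settings. Its adjusted p was 0.0250 and ranged from 6.88e-08 by DESeq2 to 0.618 with only these groups in the fit. There was no DEG without untreated replicate 2, untreated replicate 3 or PFD replicate 1 in edgeR, with 298, 771 and 208 genes at an unadjusted p under 0.05, and 1 without untreated replicate 1, which was Ppm1e, a protein phosphatase singled out after its value was seen.

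Levels in the untreated hearts are given here for some DEGs between PFD and HFpEF, which were picked for the distance of PFD from the same HFpEF libraries. Pdk4 stood at 413, 124 and 346 CPM in the untreated libraries, Cs at 598, 120.3 and 379.6 and Atp2a2 at 9178, 2414 and 6318. Untreated replicate 2 was the lowest in each. Fbln1 stood at 131, 282 and 111 CPM, Csf1r at 57.9, 99.0 and 63.4 and Igf1 at 18.3, 32.2 and 16.5, with replicate 2 the highest in each. Ccl4 and Prkcz had log2 fold changes of −1.40 and −0.79 from HFpEF to untreated, against −2.32 and −1.64 from HFpEF to PFD.

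Control hearts show how the same genes differed between weeks 5 and 9 without L-NAME and the high-fat diet. From week 5 to week 9 the controls had medians of −0.22 for fatty acid genes, −0.89 for the TCA cycle, −0.79 for the sarcomere and −0.22 for calcium handling, where PFD against HFpEF had 1.62, 1.45, 1.32 and 1.16. For collagens the medians were −2.27 in controls and −1.74 from HFpEF to PFD, for other matrix genes −2.10 and −1.69 and for macrophage genes −1.19 and −1.67. The matrix and macrophage genes were thus lower at week 9 in the controls as well, and the metabolic and contractile genes were not higher there. Cs, for example, stood at 980.4, 549 and 590.2 CPM in the controls of week 5 and 169, 172 and 188 in those of week 9. Col3a1 stood at 1319.9, 25573 and 20226 and 1449.6, 1023 and 1766 CPM, with control replicate 1 of week 5 at the level of week 9.

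An interaction test asked whether the change from HFpEF to PFD differed from that between the controls of weeks 5 and 9, and it was met by 2311 genes (18.7%), 1251 with a higher and 1060 with a lower difference. Of the list genes, 19 of 25 TCA genes, 13 of 32 fatty acid genes, 15 of 49 respiratory chain genes and 14 of 25 sarcomere genes had a higher difference. A lower difference was found for 1 sarcomere gene and for 0 TCA, 0 fatty acid and 0 respiratory chain genes. For collagens the test was met by 0 genes with a higher and 0 with a lower difference in edgeR, and for macrophage genes by 0 and 0. Other matrix genes had 0 with a higher and 3 of 32 with a lower difference, and TGF-β genes 0 and 4 of 22. A lower difference was found for 1060 of all 12388 genes tested. Sphkap rose from HFpEF to PFD while the controls went from 58.9, 55.0 and 63.2 CPM to 4.96, 2.83 and 8.48, an interaction of 6.52 (SE 0.75, adjusted p = 0.000316). Hk2, which was no DEG between PFD and HFpEF, went from 77.4, 83.1 and 74.7 CPM to 6.88, 6.76 and 11.4 in the controls, an interaction of 3.77 (SE 0.44, adjusted p = 0.000316).

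Endothelial genes had 13 of 18 members with a lower difference and 0 with a higher one. Over all 12388 genes tested, 1060 had a lower and 1251 a higher difference. Sox17, a transcription factor of arterial endothelium, overlapped between the groups at 63.9, 89.6 and 88.2 CPM in the HFpEF libraries and 80.2 and 77.7 in the PFD libraries. In the controls it stood at 27.0, 24.5 and 26.5 CPM in week 5 and 247, 251 and 148 in week 9, an interaction of −3.08 (SE 0.27, adjusted p = 0.000108). Sgk1, a kinase induced by glucocorticoids, stood at 251, 221 and 282 CPM in the HFpEF libraries and 208 and 217 in the PFD libraries, and the controls went from 50.1, 61.4 and 61.3 CPM to 479, 536 and 330.2, an interaction of −3.20 (SE 0.33, adjusted p = 0.000316). Spns2, which exports sphingosine 1-phosphate, was lower in PFD at 108, 117 and 106 CPM in the HFpEF libraries and 66.1 and 66.9 in the PFD libraries and higher in the controls of week 9, an interaction of −1.89 (SE 0.21, adjusted p = 0.000316). From HFpEF to PFD the log2 fold changes were −0.03 for Sox17, −0.24 for Sgk1 and −0.73 for Spns2, against 3.05, 2.96 and 1.16 in the controls. With 1 library left out, the value of Sgk1 from HFpEF to PFD ran from −0.33 to −0.15. The inhibitor of NF-κB Nfkbia and the phosphatase gene Dusp1 had interactions of −3.16 (SE 0.37, adjusted p = 0.000316) and −2.72 (SE 0.31, adjusted p = 0.000316), with log2 fold changes of −0.15 and −0.15 from HFpEF to PFD and 3.01 and 2.57 in the controls.

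Some named genes lie over another gene in the RefSeq annotation of the GRCr8 assembly, which is later than the rn6 assembly used for the counts. Of the 95 genes tested by name, 95 were matched to it and 34 overlapped at least 1 other gene, among them Col1a1 with Sgca, Timp1 with Syn1 and Rd3l with Tdrd9. Whether the counts kept the strands apart is not given in the sources used here, so reads of such pairs could have been shared, which was not tested.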

How the data were processed

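The deposited values are raw counts for each gene symbol. The authors trimmed reads (Trim Galore), checked their quality (FastQC), mapped them to the rn6 build (HISAT2) and assigned them to genes (HTSeq). They ran DESeq2 inside iDEP.96. Versions of DESeq2 itself and of the other tools, the overlap mode, the strand setting and the annotation are not given in the sources used here. The counts of each library were read from its own deposited values, and the table of the whole series was not used. The authors state that 1 PFD sample was left out for a corrupted file.

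Genes passing the edgeR function filterByExpr (12388 of 17455) were scaled by TMM, and 1 quasi-likelihood model of all 7 groups and 19 libraries was fitted with edgeR 4.0.16 (R 4.3.3), with its F test for each contrast. Each comparison was adjusted by Benjamini-Hochberg over all genes tested, and a DEG needed, beside an adjusted p under 0.05, at least a doubling or its inverse (log2 of 1). The contrasts were PFD against HFpEF, PFD against untreated, and the interaction of PFD against HFpEF with the change between controls of weeks 5 and 9. Each SE was derived from the test, as the absolute log2 fold change divided by the square root of its F statistic. Libraries of 2 groups that did not overlap are counted without a test. A group with at most 3 counts in every library was given 3 counts per library for a bound of the fold.

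Genes were named by a rule: the 8 largest rises and 8 largest falls among non-overlapping DEGs with a mean of at least 5 CPM and a symbol not starting with LOC, RGD, AABR or RT1; up to 3 DEGs of each list with the smallest adjusted p and its most abundant gene; fixed fibrosis, stress, sex-linked and RT1 genes; each DEG of comparisons with 5 or fewer; and 4 genes of the interaction in each direction. The rule gave 135 genes, of which 95 were picked for tests in the text after their values were seen. The members and lists were chosen with earlier results of these data known.

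Alternatives were RLE and upper quartile normalization, no filter beyond 1 count, a mean of at least 1 CPM, DESeq2 1.42.0, limma 3.58.1 (voom with sample quality weights), a fit of only the groups compared, adjusted p alone, a replicate block and leaving out each library of the groups compared. Floors and counts cover counting error only.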

Additional observations from a re-analysis of the deposited data

Results flagged for a closer look

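The change from HFpEF at week 5 to PFD at week 9 was set against the change from week 5 to week 9 in the controls, with an interaction test in edgeR. It was met, at an adjusted p under 0.05 and a log2 difference of at least 1, by 49 of the 95 genes tested by name and by 18.7% of all genes. The named genes were picked after their values were seen, many for the change from HFpEF to PFD that is a part of this test and some for the test itself, so their count is no measure of how common such differences are. For genes of fuel use and mitochondria, the log2 difference was positive, Hadh (4.47), Hadhb (3.68), Cs (3.89), Ogdh (3.60), Sdha (2.96), Ndufs1 (4.08), Uqcrc2 (2.95), Atp5f1b (1.89), Mrpl3 (2.38), Hspa9 (3.39) and Prdx3 (2.48). It was positive as well for their regulators, glucose and glycogen enzymes and catalase, Esrrg (2.85), Ppargc1a (2.18), Pygm (3.36), Pygb (2.82), Gys1 (2.91), Hk2 (3.77) and Cat (1.46). Contractile, calcium and chaperone genes had positive differences too, Ldb3 (1.49), Nebl (2.91), Acta1 (3.67), Atp2a2 (2.62), Ryr2 (1.99), Casq1 (3.53), Bag3 (1.30) and Hspb8 (1.91). So did genes of channels and signaling, Kcnj3 (2.49), Kcnk3 (3.72), Scn1a (2.30), Scn4b (2.36), Adra1a (4.19), Prkaca (2.14) and Sphkap (6.52). Of the other large rises, the test was met by Fads6 (4.93), Akr1b10 (4.71), Rd3l (2.56) and Cdnf (3.72). The log2 difference was negative for genes high in HFpEF replicate 1, Comp (−7.31), Serpina3n (−8.72), S100b (−4.51) and Ajap1 (−3.59). It was negative as well for the chemokine, globin and MHC genes Ccl21 (−4.33), Hba-a1 (−3.81) and RT1-CE16 (−3.25). Genes that rose in the controls by week 9 also had negative differences, Sox17 (−3.08), Sgk1 (−3.20), Spns2 (−1.89), Nfkbia (−3.16) and Dusp1 (−2.72). RT1-CE16 had at most 3 counts in every library of both week 5 groups and Serpina3n 1 count in PFD replicate 1, so their values rest on few counts and are no bounds. All 4 groups behind the test differ in week or treatment, and groups of 2 or 3 libraries are too small for a test of a library far from the others.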

How the results depend on the processing

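The 738 DEGs between PFD and HFpEF became 1280 by adjusted p alone, 1509 by DESeq2 (759 higher and 750 lower, 733 of the 738 kept), 1261 by limma voom (597 and 664, 604 kept) and 1, RT1-CE16, when only the 5 libraries compared were fitted, where 3684 genes had an unadjusted p under 0.05. With RLE or upper quartile normalization or another filter there were 654 to 826. Upper quartile normalization shifted the median of all genes from −0.04 to −0.12. With 1 library left out the count ran from 4 to 911, with the lowest values without HFpEF replicate 1 (4), PFD replicate 1 (5) and PFD replicate 2 (7). Beside the 3 RT1 genes, the DEGs were Baiap2l1 without HFpEF replicate 1, Six4 and Syde2 without PFD replicate 1, and Ier5l, Plce1, Scn1a and Slc38a2 without PFD replicate 2, singled out after their values were seen. The cause was not tested.

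A replicate block, the replicate number of the labels added to the model, gave 338 DEGs (263 higher and 75 lower), of which 322 were among the 738. The replicate numbers of PFD and HFpEF hearts share a number only, and across genes the deviations of libraries with the same number from their group means had a correlation of 0.134 for replicate 1 and 0.268 for replicate 2. Genes are not independent replicates, and a DEG lost under the block was not shown to have a smaller effect.

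Between PFD and untreated hearts there were 2 DEGs with no filter, 4 by DESeq2, 5 by limma voom, 0 when only these groups were fitted and 0 under the replicate block in edgeR, with 376 and 690 genes at an unadjusted p under 0.05 in the last pair, and 0 to 1 with 1 library left out. The DEGs were Scn1a, Cryl1, Ppm1e, Aif1l and, by limma voom, Nr4a2. The interaction count of 2311 became 3587 by adjusted p alone and 1582 to 2388 with 1 library left out, and stayed within 1.5 times in the other settings. The cause was not tested.

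Of 95 genes tested by name, 69 were DEGs, and all 69 of these kept their direction in every setting in which they were fitted, but only 3, the RT1 genes, were DEGs in each of the 5 fits with 1 library left out. Directions reversed for some genes that were not DEGs and for some lists. Nppa had a log2 fold change of −1.87 by limma voom and −4.71 (without PFD replicate 1) to 1.06 (without PFD replicate 2) with 1 library left out, and −0.41 without HFpEF replicate 2. Over such fits Acta1 ran from −0.16 to 1.48, Nppb from −0.74 to 1.48 and Tgfb2 from −0.51 to 0.80, with the lowest values without PFD replicate 1. Sox17 ran from −0.17 to 0.055, Nfkbia from −0.51 to 0.13 and Dusp1 from −0.36 to 0.011, positive without HFpEF replicate 3 in each. Sodium channel genes had a median of −0.195 without PFD replicate 2 and 0.39 without HFpEF replicate 3. Without untreated replicate 2, a setting chosen after seeing the data, PFD against untreated had medians of 0.0874 for these genes and 0.00244 for all genes tested. The cause was not tested. Of 40 lists, 37 to 40 moved by less than 1 SD between libraries under the settings that keep all libraries, as did 34 without HFpEF replicate 1, 34 without PFD replicate 1, 38 without HFpEF replicate 2, and 37 without HFpEF replicate 3 or PFD replicate 2.

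Depth limits genes near 0 counts in a group, and fitted values of such genes, as RT1-CE16 and Serpina3n, rest on few counts. With 2 and 3 hearts, 1 library weighs heavily in each group, and week, treatment and RT1 counts change together between these groups and cannot be told apart.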
